A study of Homo sapiens with 6 samples.

Results

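The CEACAM family, the carcinoembryonic antigen-related cell adhesion molecules, was examined in THP-1 cells after knockdown (KD) of the transcription factor NFIC. Its 9 members considered here were CEACAM1, CEACAM3, CEACAM4, CEACAM5, CEACAM6, CEACAM8, CEACAM19, CEACAM21 and AC243967.1, found by gene name among the 33981 genes of the deposited count table. They were chosen by family membership with the results of this comparison already known, in particular the difference of CEACAM6 and AC243967.1 between NFIC shRNA and scrambled shRNA. The fold changes of the members are therefore given as a description, with standard errors and without p-values. Of the 9 genes, 7 had a row, 6 passed the filter on low counts, CEACAM5 had a row below that filter, and CEACAM3 and CEACAM8 were found neither by name nor by identifier and were not analysed here.

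CEACAM proteins are cell surface glycoproteins of the immunoglobulin superfamily that bind to themselves, to each other and to bacterial adhesins. CEACAM5, CEACAM6 and CEACAM8 are held in the membrane by a glycosylphosphatidylinositol (GPI) anchor, CEACAM1 signals through inhibitory tyrosine motifs, and CEACAM3 and CEACAM4 carry activating motifs of the kind used by phagocytic receptors of granulocytes. In blood the family is best known from the granulocyte surface, where CEACAM6 is the antigen CD66c and CEACAM8 is CD66b, and CEACAM6 is also found on epithelial and leukemic cells.

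THP-1 is an established monocytic line from acute myeloid leukemia, grown in IMDM by the sample labels and in RPMI by the methods of the study. All 6 samples received a lentiviral vector that also carries GFP, with scrambled shRNA in 3 control samples and an shRNA against NFIC in the other 3, and GFP-positive cells were sorted 4 days after infection for bulk mRNA sequencing. The labels' name for the control is kept. The results of the study also call this control scrambled, although its methods describe a vector with GFP alone. The study and the sample titles do not give the control samples the same set of numbers. The shRNA is 1 hairpin, named sh494 by the study, and nothing states that the 3 samples of a group came from separate cultures, so that p-values measure only the spread between these samples, which may be technical.

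Totals were between 20369543 and 24809720 counts per sample, and 3 counts, taken as the smallest detectable amount, corresponded to 0.121 to 0.147 CPM (the count relative to the library total, which for the genes below was scaled by edgeR's TMM factors). Such limits cover counting error only. The target NFIC had a mean of 41.9 ± 0.445 CPM (SD, n = 3) in control cells against 21.0 ± 1.52 CPM (SD, n = 3) after KD. Across the 19182 genes tested with edgeR's quasi-likelihood test, 29.6% were called higher and 30.3% lower at an adjusted p under 0.05, and the median log2 fold change was -0.0113. The 15 monocyte markers, of which 13 passed the filter on low counts, summed to 1833 to 1945 CPM with scrambled shRNA and 1809 to 1920 CPM with NFIC shRNA. Within this sum genes went both ways, with 3 called higher and 5 lower. From scrambled to NFIC shRNA, mean LYZ went from 572 to 940 CPM, CD4 from 456 to 278 CPM and CD68 from 261 to 130 CPM. In these bulk samples, fewer cells of a type and less RNA per cell cannot be told apart.

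CEACAM6 is the member that carried most of the reads with NFIC shRNA, and it lies beside its close relative CEACAM5 on chromosome 19 (GRCh38, GENCODE release 44). CEACAM6 (ENSG00000086548) spans 41750977 to 41772211 on the plus strand and CEACAM5 (ENSG00000105388) spans 41708585 to 41730433 on the same strand. Their first coding exons, which encode the start of the signal peptide, are shown because they tell the pair apart, with capitals at the 16 of 64 bases that differ (CEACAM5 at chr19:41708732-41708795 and CEACAM6 at chr19:41755639-41755702, both plus strand).
CEACAM5: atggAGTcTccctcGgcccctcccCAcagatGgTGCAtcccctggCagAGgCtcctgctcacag
CEACAM6: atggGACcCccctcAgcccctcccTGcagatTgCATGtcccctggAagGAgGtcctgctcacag

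AC243967.1 (ENSG00000267881) is annotated as a protein-coding read-through gene from 41708657 to 41756737, joining the first coding exon of CEACAM5 to part of a CEACAM6 exon. All of its 277 exonic bases lie in exons of these genes, 139 in CEACAM5 and 138 in CEACAM6. The CEACAM6 part is the beginning of exon 2 of 6 in the canonical transcript, all of it coding sequence. It is shown because reads from it belong to both annotated genes (chr19:41756600-41756737, plus strand, GRCh38).
shared exon: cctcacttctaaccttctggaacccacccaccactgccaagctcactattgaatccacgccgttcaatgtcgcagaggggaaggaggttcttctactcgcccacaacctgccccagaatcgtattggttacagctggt
Of the windows of 50 bases in the AC243967.1 transcript, 94.7% were also found in a transcript of another gene, against 8.25% of the windows of CEACAM6. The methods do not state how reads on more than 1 gene were counted. On chromosome 19, 1807 genes with a row had the same exonic length in GENCODE 44. Of these, 118 had all exonic bases in exons of other such genes, on either strand, and 104 of the 118 had more than 10 counts over the 6 samples. Such genes thus received counts, but whether from reads within a shared exon or from reads spanning exons of different genes was not tested.

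CEACAM6 was 12.2 times as high with NFIC shRNA as with scrambled shRNA. Scrambled replicates 1 to 3 gave 85, 102 and 108 reads, against 1042, 1111 and 1434 reads in NFIC shRNA replicates 1 to 3. The lowest NFIC shRNA sample was far above the highest scrambled sample, and the groups did not overlap. On the CPM scale the controls were at 3.93, 4.14 and 5.04 (4.37 ± 0.591, SD, n = 3), and the KD samples at 50.5, 47.9 and 62.1 (53.5 ± 7.59, SD, n = 3). The log2 fold change from edgeR was 3.62 (standard error 0.12).

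AC243967.1 was also higher after KD. It had 12, 15 and 16 counts in the controls against 169, 190 and 205 after KD, and the groups again did not overlap. The mean level was 0.637 ± 0.0992 CPM in control and 8.42 ± 0.399 CPM in KD cells (SD, n = 3 each), a ratio of 13.2 and a log2 fold change of 3.72 (standard error 0.185). All of its exonic bases lie in exons of CEACAM5 or CEACAM6, and how reads on more than 1 gene were counted is not stated. How many of these counts came from CEACAM6 transcripts was not tested, so they are not read as a second measurement. The ratio of CEACAM6 counts to AC243967.1 counts was 7.08, 6.8 and 6.75 in scrambled replicates 1 to 3, against 6.17, 5.85 and 7.0 in the KD replicates. The mean ratios of 6.88 ± 0.18 and 6.34 ± 0.593 (SD, n = 3 each) differed by -0.542, less than the SD of the KD samples, and this difference was -0.297 without NFIC shRNA replicate 2 and -0.871 without NFIC shRNA replicate 3. It is given without a test, since both genes were chosen with their counts known and share exonic bases.

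CEACAM5, the carcinoembryonic antigen itself, was at 0 in all 3 scrambled samples and in NFIC shRNA replicate 3, with 1 count each in NFIC shRNA replicates 1 and 2. Both groups were thus under the limit of 3 counts, and no fold change is given. CEACAM5 and CEACAM6 lie next to each other and are similar in sequence, and 1.57% of the windows of 50 bases in CEACAM6 were also in CEACAM5. Shares of 1.38%, 1.22% and 1.14% were also in CEACAM1, CEACAM3 and CEACAM8.

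**Figure D1:**
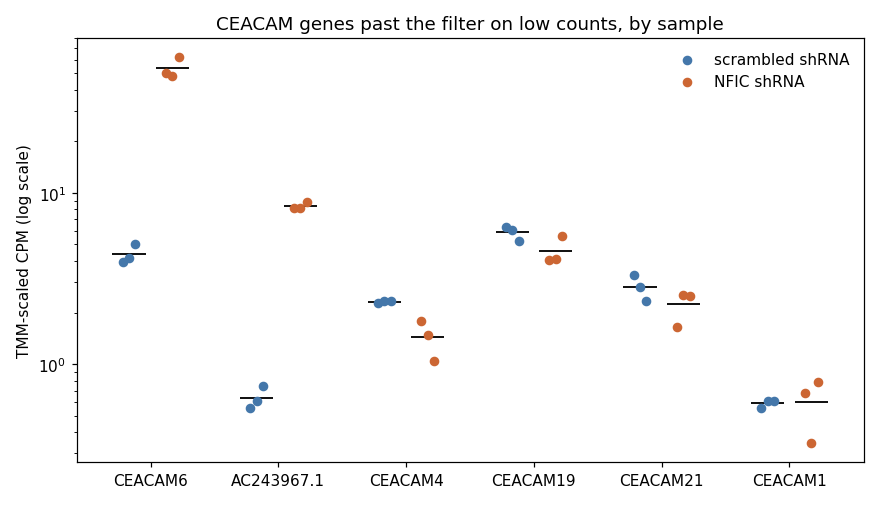
TMM-scaled CPM (log axis) of the 6 CEACAM genes past the filter on low counts, with 1 point for each of the 3 scrambled shRNA samples (blue) and 3 NFIC shRNA samples (orange), and a line at each group mean. CEACAM6 rests at 4.37 CPM in the controls and 53.5 CPM in the NFIC shRNA samples, AC243967.1 moves with it, the points of CEACAM4 do not overlap between groups, and those of CEACAM19, CEACAM21 and CEACAM1 do.

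The other 4 members past the filter on low counts did not share this difference. CEACAM4 (ENSG00000105352, 41619015 to 41627074, minus strand), the granulocyte receptor with an activating motif, had 49, 57 and 50 counts in control cells against 37, 34 and 24 after KD. Every NFIC shRNA sample was below every scrambled sample. The mean level was 2.31 ± 0.0361 CPM in control and 1.43 ± 0.378 CPM in KD cells (SD, n = 3 each), a ratio of 0.622 and a log2 fold change of -0.69 (standard error 0.225). It was called lower in edgeR, but not in DESeq2 (log2 fold change -0.68) or without NFIC shRNA replicate 3 (-0.50). That replicate had the fewest CEACAM4 counts. No exonic base of CEACAM4 lies in an exon of another gene.

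CEACAM19 (ENSG00000186567, 44662278 to 44684359, plus strand), a less well characterised member far from the others, had 136, 150 and 112 counts in control cells against 83, 95 and 129 after KD. NFIC shRNA replicate 3 lay within the range of the controls, so that the groups overlapped. The mean level was 5.87 ± 0.563 CPM in control and 4.57 ± 0.884 CPM in KD cells (SD, n = 3 each), and its log2 fold change was -0.36 (standard error 0.155), which was not called. It was called lower without scrambled replicate 3 (-0.44) and without NFIC shRNA replicate 3 (-0.53). CEACAM19 shares 121 exonic bases with PVR, the poliovirus receptor gene, which overlaps its start, and PVR itself was lower with NFIC shRNA (log2 fold change -0.72, standard error 0.0655, edgeR adjusted p = 5.76e-08). Whether reads from the shared bases contributed to the value of CEACAM19 was not tested.

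CEACAM21 (ENSG00000007129, 41549518 to 41586844, plus strand), also less well characterised, had 72, 69 and 50 counts in control cells against 34, 59 and 58 after KD. The groups overlapped. The mean level was 2.82 ± 0.497 CPM in control and 2.24 ± 0.508 CPM in KD cells (SD, n = 3 each), and its log2 fold change was -0.33 (standard error 0.21), which was not called.

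CEACAM1 (ENSG00000079385, 42507304 to 42561234, minus strand), the inhibitory receptor of the family, was barely detected. Control replicates 1 to 3 gave 12, 15 and 13 counts against 14, 8 and 18 in the KD replicates, and the NFIC shRNA samples lay on both sides of the controls. The mean level was 0.59 ± 0.0309 CPM in control and 0.601 ± 0.228 CPM in KD cells (SD, n = 3 each). Its log2 fold change of 0.019 had a standard error of 0.374, and at this depth a moderate difference in either direction was not detectable. LIPE-AS1 runs through CEACAM1 on the opposite strand and shares 185 of its exonic bases, and the library kit does not mark strand, so that reads from these bases cannot be assigned to either gene.

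Thus 2 of the 6 members past the filter were called higher (background 29.6% of all genes tested), 1 was called lower (background 30.3%) and 3 were not called. Both that were called higher share exonic sequence, and no comparison with the background is drawn, because the members were chosen with this contrast known.

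Levels of different genes were compared per length, with the deposited FPKM values. With scrambled shRNA the order was AC243967.1 at 2.27 ± 0.361 FPKM, CEACAM4 at 1.67 ± 0.0312, CEACAM6 at 1.46 ± 0.202, CEACAM21 at 1.41 ± 0.244, CEACAM19 at 1.11 ± 0.104 and CEACAM1 at 0.106 ± 0.00584 FPKM (SD, n = 3 each). From CEACAM4 to CEACAM19 each gene overlapped the next in this order, while AC243967.1 lay above all and CEACAM1 below these genes in every control sample. CEACAM6 was therefore not set apart from CEACAM4 or CEACAM21 in control cells. With NFIC shRNA, AC243967.1 was at 30.4 ± 1.64 FPKM and CEACAM6 at 18.1 ± 2.68 FPKM, and neither overlapped its neighbour in the order. CEACAM21 (1.13 ± 0.261 FPKM), CEACAM4 (1.05 ± 0.271) and CEACAM19 (0.878 ± 0.176) followed with overlapping samples, and CEACAM1 was at 0.109 ± 0.0418 FPKM (SD, n = 3 each). The FPKM of AC243967.1 rests on an annotated length of 277 bases against 2956 for CEACAM6, so that its place above CEACAM6 comes from the length and not from the counts.

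Without AC243967.1, the FPKM of the family summed to 5.89, 5.73 and 5.66 in control replicates 1 to 3, and to 20.02, 19.4 and 24.4 after KD. CEACAM6 made up 22.2%, 24.2% and 29.9% of that sum in the controls against 84.8%, 83.4% and 86.6% after KD. The family thus went from a mixture of 4 genes at like levels to 1 dominated by CEACAM6.

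**Figure D2:**
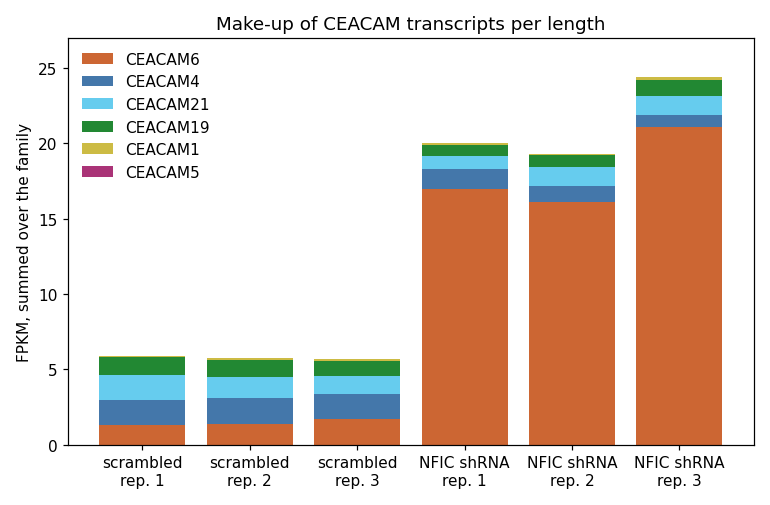
Deposited FPKM of CEACAM6, CEACAM4, CEACAM21, CEACAM19, CEACAM1 and CEACAM5, stacked for each of the 6 samples, without AC243967.1. The sum is between 5.66 and 5.89 FPKM in the scrambled samples and between 19.4 and 24.4 FPKM in the NFIC shRNA samples, and CEACAM6 takes up most of the bar in the latter only.

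Beyond the 9 members, the list of other CEACAM genes and of PSG genes, the pregnancy-specific glycoproteins of the same superfamily branch, held 15 genes. CEACAM16 and CEACAM22P of this list had a row, CEACAM16 with 1 count in each group and CEACAM22P with 1 count in the controls and 4 after KD, all 4 in replicate 1. A further gene of that name outside the list, the pseudogene CEACAMP5, had 1 count, in NFIC shRNA replicate 1. None of them passed the filter.

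The RefSeq promoter table (GRCh38.p14) held entries for 5 of the 7 members with a row, namely CEACAM1, CEACAM4, CEACAM5, CEACAM6 and CEACAM21, the last with 2 start sites, and none for CEACAM19 or AC243967.1. The upstream sequences of CEACAM6, CEACAM5 and CEACAM4 are shown from 250 to 36 bases before the start site, because they are alike in sequence although CEACAM6 differed between the groups, CEACAM5 was not detected above 3 counts and CEACAM4 was lower. Capitals mark the E-box letters CACGTG, to which proteins such as USF1 and MYC with MAX can bind (CEACAM6 at chr19:41755280-41755494, plus strand; CEACAM5 at chr19:41708376-41708590, plus strand; CEACAM4 at chr19:41627110-41627324, minus strand).
CEACAM6: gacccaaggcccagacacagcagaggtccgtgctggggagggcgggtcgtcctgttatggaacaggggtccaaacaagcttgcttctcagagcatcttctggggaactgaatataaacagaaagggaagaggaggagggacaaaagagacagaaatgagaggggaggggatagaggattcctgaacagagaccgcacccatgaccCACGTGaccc
CEACAM5: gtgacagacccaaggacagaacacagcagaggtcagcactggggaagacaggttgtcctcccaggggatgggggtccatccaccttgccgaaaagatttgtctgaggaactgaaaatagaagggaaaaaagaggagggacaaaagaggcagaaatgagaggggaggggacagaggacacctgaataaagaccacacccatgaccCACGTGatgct
CEACAM4: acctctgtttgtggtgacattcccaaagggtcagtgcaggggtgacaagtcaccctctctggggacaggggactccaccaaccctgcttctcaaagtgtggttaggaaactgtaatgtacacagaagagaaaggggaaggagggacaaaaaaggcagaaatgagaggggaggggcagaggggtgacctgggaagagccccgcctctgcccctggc
Over 250 bases, the promoter of CEACAM5 was identical to that of CEACAM6 at 73.6% of aligned positions, that of CEACAM4 at 68.7%, that of CEACAM1 at 67.6%, and those of CEACAM21 at 70.3% and 42.8%. The E-box began 45 bases before the RefSeq start site of CEACAM6 and 46 bases before that of CEACAM5, within a run of 18 identical bases. It was not found at the other 4 start sites. These RefSeq start sites are not the gene starts of the GENCODE spans given above, and the windows of CEACAM6 and CEACAM1, for example, lie inside those spans. It was present in 6.32% of all 34943 promoters of this length. The NFI half-site TTGGC, searched on both strands, was in none of the 6 windows and in 40.8% of all promoters, and the letters CCAAT, also on both strands, were in none of them and in 32.0% of all. The full site, TTGGC followed 5 bases later by GCCAA, was in 0.0286% of all promoters. TTGGC, which reads GCCAA on the other strand, and CCAAT can overlap by 4 letters. These matches describe the letters of the windows only.

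The genes around the CEACAM genes did not show the difference of CEACAM6. Of 45 tested genes within 250 kb of a member, 10 were called higher and 22 lower (background 29.6% and 30.3%), with a median log2 fold change of -0.28, against -0.0113 for all genes tested. The nearest tested gene to the right of CEACAM6 was RPS19, a small ribosomal subunit protein gene 88.0 kb away. RPS19 was at 1135 ± 5.38 CPM with scrambled shRNA and 932 ± 22.1 CPM with NFIC shRNA (SD, n = 3 each), and its log2 fold change was -0.28 (standard error 0.0463, edgeR adjusted p = 4.58e-05). To the left, past the other CEACAM genes, the nearest was AC243960.3, 218.8 kb away and 17.3 kb from CEACAM21. Its log2 fold change was -1.52 (standard error 0.44, edgeR adjusted p = 0.00662). This gene had 18, 15 and 11 counts in the controls against 3, 5 and 7 after KD, near the limit of 3 counts.

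CEACAM1 and CEACAM19 lie in other stretches of the chromosome. Beside CEACAM1, AC011497.2 at 21.6 kb and PHLDB3 at 913.7 kb had log2 fold changes of 0.38 and 0.14 (standard errors 0.311 and 0.138), and neither was called, nor was LIPE-AS1 (-0.13, standard error 0.201). Beside CEACAM19, BCL3, which encodes a nuclear IkB-like regulator of NF-kB, was higher at 63.3 kb (log2 fold change 0.55, standard error 0.108, edgeR adjusted p = 0.000286), and ZNF180 at 161.8 kb was not called (-0.032, standard error 0.0821). PVR and AC243964.4, which overlap CEACAM19, were both lower. The log2 fold change was -0.72 for PVR and -0.85 for AC243964.4 (standard error 0.165, edgeR adjusted p = 0.00027).

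**Figure D3:**
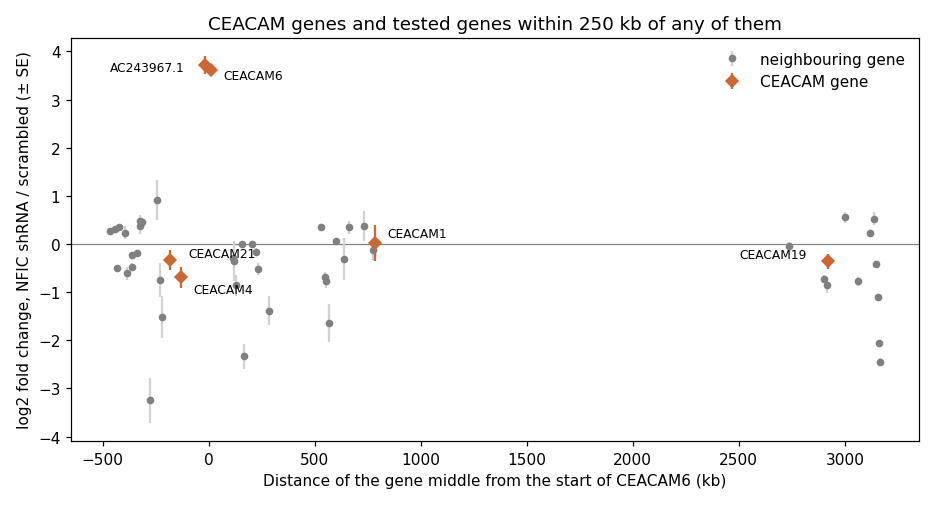
Log2 fold change of NFIC shRNA over scrambled shRNA (points, with bars of 1 standard error) for the 6 CEACAM genes past the filter (orange) and the 45 tested genes within 250 kb of a member (grey), against the distance of the gene middle from the start of CEACAM6 in kb. CEACAM6 and AC243967.1 stand at 3.62 and 3.72, above every other gene plotted, and CEACAM21 and CEACAM4, a short way to the left, lie below 0.

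CEACAM signalling needs partners inside and outside the cell, and 25 such genes were listed, all of them tested. Of these, 13 were called higher, 4 lower and 8 were not called (background 29.6% higher and 30.3% lower), with a median log2 fold change of 0.22. Without scrambled replicate 3, without NFIC shRNA replicate 1 and in DESeq2 the number called lower was 2. FGR, LYN and SYK, kinases of the SRC and SYK families of which some phosphorylate CEACAM tails, were among those called higher. FGR went from 32.7, 25.5 and 33.5 CPM to 77.6, 83.6 and 75.8 CPM (log2 fold change 1.37, standard error 0.086, edgeR adjusted p = 1.82e-09), and the log2 fold changes of LYN and SYK were 0.75 (standard error 0.0539, adjusted p = 3.33e-09) and 0.61 (standard error 0.0473, adjusted p = 8.88e-09) in the same fit. SRC itself (-0.11, standard error 0.0817) was not called, and it was named after its values were seen. PTPN6 (SHP-1), a phosphatase recruited by the inhibitory motifs of CEACAM1, was higher (log2 fold change 0.48, standard error 0.0636, edgeR adjusted p = 6.66e-06), while PTPN11 (SHP-2), its relative, was at -0.0020 (standard error 0.0467) and was not called. PTPN6 and PTPN11 were likewise named after their values were seen. LGALS9, a galectin, was lower (log2 fold change -0.83, standard error 0.0564, edgeR adjusted p = 1.69e-09), as were PIK3R2 (-0.38) and NCK2 (-0.16), an adaptor subunit of PI3-kinase and an SH2 adaptor.

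CEACAM6 reaches the surface through a GPI anchor, and genes of other GPI-anchored proteins were called in both directions. Of 30 listed, 16 passed the filter, of which 6 were called higher, 6 lower and 4 were not called (background 29.6% and 30.3%, median log2 fold change 0.10). CD109 (log2 fold change 1.38, standard error 0.12), BST1 (0.93, standard error 0.0527) and CD59 (0.92, standard error 0.13), an inhibitor of complement, were higher. PRNP, the prion protein gene, was lower (-1.61, standard error 0.0936), and so were BST2 (-0.98, standard error 0.0625) and CD55 (-0.48, standard error 0.0593), a second complement regulator. Each of these 6 had an edgeR adjusted p between 1.82e-10 for BST1 and 9.21e-06 for CD59. None reached the log2 fold change of CEACAM6.

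The 29 genes that build and attach the GPI anchor were all tested. Of these, 8 were called higher, 12 lower and 9 were not called (background 29.6% and 30.3%), with a median log2 fold change of -0.042. The number called higher stayed at 8 only with DESeq2 size factors and without NFIC shRNA replicate 3. In the other alternatives it was between 4 (without scrambled replicate 3) and 7 (no filter on low counts). It was 5 in DESeq2 and with upper-quartile normalization. PIGX (0.56, standard error 0.0631), which serves with PIGM in adding the first mannose, DPM1 (0.51, standard error 0.0584), a subunit of the enzyme that makes the mannose donor, and PIGU (0.33, standard error 0.0811), of the transamidase, were higher. PIGT (-0.69, standard error 0.0519) and PIGS (-0.43, standard error 0.0578), also of the transamidase, were lower, as was PIGP (-1.19, standard error 0.111), of the enzyme for the first step.

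Granule genes were listed because CEACAM8 and other CD66 antigens are stored in the specific granules of neutrophils. Of 22 genes, 13 passed the filter, of which 4 were called higher, 3 lower and 6 were not called (background 29.6% and 30.3%, median log2 fold change 0.084). With at least 10 counts in every sample 1 was called lower. BPI, an antibacterial protein, went from 1.85, 2.32 and 1.87 CPM to 22.9, 24.5 and 23.8 CPM (log2 fold change 3.55, standard error 0.119, edgeR adjusted p = 4.14e-13). CTSD, a lysosomal protease (1.13, standard error 0.0544), and ITGAM, the CD11b integrin chain (0.99, standard error 0.071), were also higher. BPI and CTSD are known from azurophil granules and lysosomes rather than from specific granules. CHI3L1, a classical specific granule product, went from between 1613 and 1633 CPM in the control samples to between 159 and 222 CPM with NFIC shRNA (log2 fold change -3.08, standard error 0.0987, edgeR adjusted p = 3.28e-10), and CAMP (-2.42, standard error 0.416) and HP (-1.73, standard error 0.407) were lower. SLPI was also called higher (0.81, standard error 0.168). LTF, the lactoferrin gene that marks these granules, had 0 counts in every scrambled sample and 1 count in all with NFIC shRNA. Also below the filter, ABCA13 had 3, 3 and 2 counts against 17, 10 and 21 after KD, and MMP8 had 0, 5 and 2 against 8, 6 and 10. PGLYRP1 had 8, 5 and 1 counts against 0, 6 and 2, and ARG1 had 4, 5 and 5 against 4, 0 and 7. LTF, SLPI and these low-count genes were named after their values were seen.

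**Figure D4:**
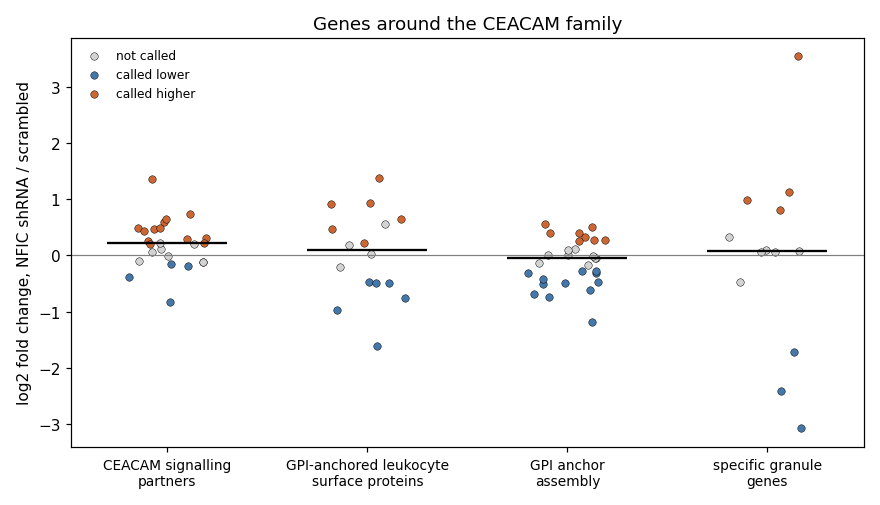
Log2 fold change of NFIC shRNA over scrambled shRNA for the tested genes of 4 lists around the CEACAM family, 1 point per gene, coloured by whether edgeR called it higher (orange), lower (blue) or not (grey), with a line at the median of each list. The medians are 0.22, 0.10, -0.042 and 0.084, and BPI is the point at 3.55.

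Markers of other cell types were set beside CEACAM6, with the same background of 29.6% called higher and 30.3% lower for each count. Of 12 markers of mature neutrophils, 10 had a row and 6 passed the filter, of which 3 were called higher, 2 lower and 1 was not called, with a median log2 fold change of 0.67. The 10 summed to 230.2 to 239.7 CPM with scrambled shRNA and 190.5 to 219 CPM with NFIC shRNA, and most of this sum was CSF3R, at 203 CPM in control and 144 CPM in KD cells on average. FPR2 (2.34, standard error 0.12), PADI4 (2.21, standard error 0.49) and CXCR2 (0.89, standard error 0.106) were higher on the log2 scale. PADI4 was near the limit of 3 counts in the controls, with 2, 2 and 7 counts against 15, 22 and 15 after KD. MMP9 (-1.08, standard error 0.137) and CSF3R (-0.50, standard error 0.0736) were lower, and 4 markers, among them CXCR1 and MME, had 3 counts or fewer in every sample. Of 15 epithelial markers, 11 had a row and 5 were tested, with 2 called higher and 3 lower, and the sum of the 11 went from between 32.5 and 35.04 CPM to between 25.7 and 28.1 CPM. MUC1 (-2.27, standard error 0.207), CLDN7 (-2.15, standard error 0.193) and KRT8 (-2.04, standard error 0.219) were lower, VIL1 (0.74, standard error 0.0964) and LGALS4 (1.03, standard error 0.264) were higher, and EPCAM had at most 17 counts in a control sample and 4 with NFIC shRNA. All samples were sorted cells of the THP-1 line, and whether these markers and CEACAM6 differed in the same cells was not tested. Of 5 tested lymphoid markers, 4 were called lower and none higher, with sums over the 8 that had a row of 26.03 to 28.1 CPM and 16.9 to 19.05 CPM, and both tested erythroid and megakaryocytic markers were called lower, with sums over the 5 that had a row of 7.76 to 8.22 CPM and 2.57 to 2.89 CPM. Of the 13 monocyte markers tested, 3 were called higher, 5 lower and 5 were not called.

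The genes with the profile most like that of CEACAM6 were sought among protein-coding genes with a mean log2 CPM of at least 1, leaving out the CEACAM family members and with them AC243967.1. Likeness was the root mean square difference of log2 CPM, centred on the mean of each gene over the 6 samples, so that it rests mostly on the difference between the 2 groups. The nearest was BPI, on chromosome 20 (0.21 log2 units), followed by DYSF, the membrane repair gene dysferlin (0.354), the hexokinase gene HK3 (0.587), the histone gene H2BC21 (0.597) and CAB39L (0.613). Their log2 fold changes were 3.55 for BPI, 2.94 for DYSF, 2.49 for HK3, 2.57 for H2BC21 and 2.42 for CAB39L, against 3.62 for CEACAM6. DYSF was at 12.9, 15.4 and 14.0 CPM in the controls against 107, 106 and 113 CPM after KD. HK3 was at 18.4 ± 1.24 CPM and 104 ± 7.62 CPM (SD, n = 3 each).

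**Figure D5:**
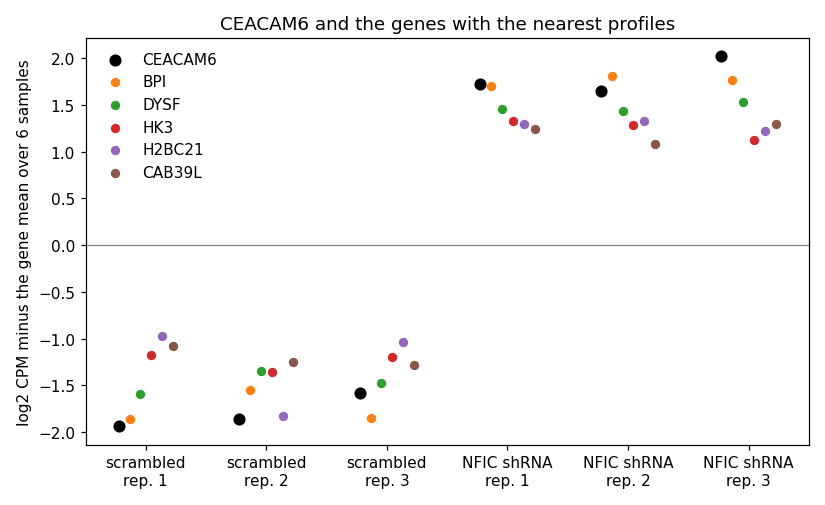
Log2 CPM of CEACAM6 (black) and of the 5 protein-coding genes outside the family with the nearest profiles, each minus the mean of that gene over the 6 samples, for scrambled replicates 1 to 3 and NFIC shRNA replicates 1 to 3. BPI lies closest to CEACAM6, at a root mean square difference of 0.21 log2 units, and CAB39L is the farthest of the 5, at 0.613.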

How the data were processed

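Bulk mRNA of 6 THP-1 samples was sequenced. The authors trimmed the reads, aligned them with STAR (GRCh38) and counted them per Ensembl gene with featureCounts, as their methods state, and the deposited counts are not normalized. The authors also deposited a normalized signal (counts over DESeq2 size factors) with its mean, FPKM, and their DESeq2 log2 fold changes, standard errors, Wald score and p-values. These results of their comparison were not used.

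The counts were tested with edgeR 4.0.16 (R 4.3.3; TMM, filter on low counts, robust quasi-likelihood fit, 19182 of 33981 genes, Benjamini-Hochberg threshold 0.05), 3 samples against 3 with group as the only term. The standard error is the log2 fold change divided by the square root of F. Genes were matched to GENCODE 44 by identifier, and promoters came from RefSeq. The members and gene lists were chosen with earlier results of these data known. Named were all members, NFIC, up to 3 genes per list and direction with the smallest adjusted p, the nearest tested neighbours and the 5 nearest profiles. The marker genes beyond this rule were named after their values were seen. The values of 1 listed gene are not reported here. The fit was tested on simulated data. Alternatives were DESeq2 1.42.0, its size factors, upper quartile, other filters on low counts, each sample left out and a replicate block.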

Additional observations from a re-analysis of the deposited data

How the results depend on the processing

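The count of 2 CEACAM genes called higher was the same under all 12 alternatives, and the log2 fold change of CEACAM6 stayed between 3.50 and 3.72, with 3.61 when the replicate number was used as a block. The count called lower was 1, and it became 2 with upper-quartile normalization and with a minimum of 10 counts in every sample, where CEACAM19 was added (-0.42 and -0.37), and 0 with DESeq2, where CEACAM4 was lost. With single samples left out it was between 1 and 2. The value without NFIC shRNA replicate 3 was also 1, but it was then CEACAM19 (-0.53) in place of CEACAM4 (-0.50). The log2 fold change of CEACAM1 changed sign to -0.038 with the upper quartile and to -0.0090 with the replicate block, and, with 1 sample left out, ranged from -0.22 to 0.31 and was -0.030 without scrambled replicate 1, -0.067 without NFIC shRNA replicate 1 and -0.22 without NFIC shRNA replicate 3. The cause was not tested. With at least 10 counts in every sample CEACAM1 was not tested at all. The totals of genes called in the lists stayed within 1.5 times. By direction, the signalling partners called lower fell from 4 to 2 (DESeq2, without scrambled replicate 3, without NFIC shRNA replicate 1). The GPI assembly genes called higher stayed at 8 only with DESeq2 size factors and without NFIC shRNA replicate 3. Otherwise they fell to between 4 (without scrambled replicate 3) and 7 (no filter on low counts), with 5 in DESeq2 and with the upper quartile. The granule genes called lower fell from 3 to 1 (at least 10 counts). The order of levels with scrambled shRNA kept 5 of 7 places without scrambled replicate 3 and all 7 otherwise.

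Same-numbered samples did not deviate together (correlations across genes of 0.0563, -0.0862 and -0.0446), so that the numbers are not read as pairs. Of the 6 samples, 1 correlated best with the sample of its own number in the other group. With the replicate block 10983 genes were called, against 11486. Depth limits CEACAM1 and CEACAM5, whose counts were at most 18 and 1 in a sample.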
